A study of Mus musculus with 27 samples.

Results

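This account follows 10 genes of acid and electrolyte transport in mouse gastric organoids, Atp4a, Kcnq1, Slc9a4, Clic6, Cftr, Slc26a9, Slc26a4, Car2, Aqp5 and Ckb. They were taken by gene symbol from a count table of 56691 genes, with 1 row each, and all 10 were among the 15115 genes tested. RNA was sequenced from organoids grown from stomach cells of adult mice in a proliferation medium, in 7 groups of 3 libraries. Gpx4 knockout (KO) Mist1+ organoids, from Gpx4F/F;Mist1Cre/ERT2;RFPLSL mice, were taken at passages 5, 10 and 15. Wild-type (WT) Mist1+ organoids, from Mist1Cre/ERT2;RFPLSL mice, were taken at the same passages, and Mist1- organoids labelled WT at passage 5. Both genotypes of Mist1+ organoid thus carried the inducible Cre under Mist1 and the red fluorescent reporter, and differed by the floxed Gpx4 alleles. The labels give 1 growth protocol, with sorting for the red reporter, for every group, and do not say how Mist1- cells were obtained, nor whether the 3 libraries of a group came from separate mice or cultures. The p-values therefore rest on the spread between libraries, estimated for each gene over all 7 groups, and this spread may be technical.

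Acid secretion rests on a small circuit of transporters. In parietal cells the H+/K+-ATPase exchanges luminal potassium for protons, potassium channels return potassium to the lumen, chloride leaves by apical channels, and carbonic anhydrase supplies protons and bicarbonate from carbon dioxide. Surface mucous (pit) cells use anion channels, bicarbonate exchangers and carbonic anhydrase to keep an alkaline mucus layer, and gland cells release fluid through water channels. Gpx4, the gene targeted here, encodes a glutathione peroxidase that detoxifies oxidised membrane lipids and so protects cells from ferroptosis. Mist1, the product of Bhlha15, is a basic helix-loop-helix factor of professional secretory cells, in the stomach mainly the chief cells.

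Libraries held 13805585 to 19608956 counts. Levels are counts scaled by TMM to a library total of 1000000 (CPM), and "rose", "fell" and "called" mean an adjusted p under 0.05 in edgeR's quasi-likelihood test over all genes. The WT passage 15 group stood apart: its library pairs differed by 17.2 to 79.8 times the sampling noise in chi-square per degree of freedom, against 1.57 to 2.64 in the other 6 groups, and the intestinal factor Cdx2 had 37.7, 27.6 and 30.7 CPM there and at most 1.32 CPM in any other library. Calls at passages 5 and 10 were therefore also made without that group. Because the spread of a gene was estimated over all 7 groups, an SE or p-value does not give the spread of WT passage 15 alone. For Cftr the SE of KO against WT was 0.159 at passage 15 and 0.164 at passage 5. The SD of its WT libraries was 35.3% of their mean at passage 15 and 5.52% at passage 5. Gpx4 had 101, 98.9 and 98.2 CPM in KO libraries and 132, 124 and 134 CPM in WT libraries at passage 5. The KO libraries were lower but not at 0, and counts per gene do not show whether the targeted exons were read. Its adjusted p was 0.0362 at passage 5, 0.094 at passage 10 and 0.000215 at passage 15, with a lower KO mean each time.

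The organoids were labelled gastric epithelium, and most defining transcripts of the acid-secreting cell were at or near 0. Of 11 parietal markers, 9 were under 1 CPM in every group mean, and Slc26a7, Kcnj16 and Hrh2 had 0 counts in every library. Atp4b, the beta subunit that the proton pump needs, summed to at most 3 counts in a group. The pit markers were present in all groups, with 6 of 6 above 1 CPM. Their summed level was 1444 to 1468 CPM in KO libraries at passage 5, 2342 to 2540 at passage 10 and 4714 to 4797 at passage 15. In WT libraries it was 4957 to 5102, 6814 to 7066 and 914 to 1539 CPM at the same passages, and in Mist1- libraries 595 to 627 CPM. In bulk RNA, fewer cells of a type and less RNA per cell cannot be told apart.

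Of the 10 genes, 6 have a promoter sequence in the RefSeq table used here (GRCm38.p6), covering 250 bases before and 50 after the start that RefSeq gives. For Cftr and Slc26a9 that start is also the one in GENCODE M21, for Slc26a4 it lies 15 bases upstream of it, and for Aqp5 it lies 246 bases downstream, so that nearly all of the Aqp5 window is inside the gene as GENCODE M21 draws it. The promoters of 2 genes that were lower in KO organoids at passages 5 and 10, Cftr and Slc26a9, and of 2 that were higher there, Aqp5 and Slc26a4, are shown to set the sequences of both directions side by side. They are read 5′ to 3′ on the gene's strand, chr6:18170437-18170736 (plus), chr1:131743772-131744071 (plus), chr15:99590778-99591077 (plus) and chr12:31559935-31560234 (minus). Capitals mark matches on either strand to a TATA box (TATAAA) or a GC box (GGGCGG); the core of the antioxidant response element (TGACNNNGC) was also searched and had no match in these windows.
Cftr: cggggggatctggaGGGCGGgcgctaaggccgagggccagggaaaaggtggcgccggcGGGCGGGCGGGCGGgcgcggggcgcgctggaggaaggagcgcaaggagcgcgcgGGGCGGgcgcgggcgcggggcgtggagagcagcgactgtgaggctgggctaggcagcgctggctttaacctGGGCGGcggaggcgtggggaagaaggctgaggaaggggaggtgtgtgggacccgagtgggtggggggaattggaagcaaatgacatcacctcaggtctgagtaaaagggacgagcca
Slc26a9: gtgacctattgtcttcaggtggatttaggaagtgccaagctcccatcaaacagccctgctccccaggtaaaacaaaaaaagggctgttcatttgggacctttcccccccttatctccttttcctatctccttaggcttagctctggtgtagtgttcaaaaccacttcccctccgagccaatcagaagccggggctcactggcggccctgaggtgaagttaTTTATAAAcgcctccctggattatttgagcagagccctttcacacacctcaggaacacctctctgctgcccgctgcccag
Aqp5: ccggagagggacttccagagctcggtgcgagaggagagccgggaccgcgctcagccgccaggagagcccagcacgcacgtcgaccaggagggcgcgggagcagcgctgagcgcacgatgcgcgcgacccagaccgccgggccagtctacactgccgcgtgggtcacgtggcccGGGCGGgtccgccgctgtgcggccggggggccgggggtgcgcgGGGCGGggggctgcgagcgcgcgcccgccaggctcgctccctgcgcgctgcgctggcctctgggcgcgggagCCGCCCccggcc
Slc26a4: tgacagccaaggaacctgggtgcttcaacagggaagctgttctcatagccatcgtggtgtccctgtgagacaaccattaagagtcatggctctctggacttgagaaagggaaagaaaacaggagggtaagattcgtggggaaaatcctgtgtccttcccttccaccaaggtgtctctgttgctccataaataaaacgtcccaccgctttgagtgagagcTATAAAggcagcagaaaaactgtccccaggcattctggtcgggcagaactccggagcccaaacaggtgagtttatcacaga
Cftr and Aqp5 had GC-rich windows of 71.3% and 79.7% G and C, with 6 and 3 GC boxes and no TATA box. In the windows of Slc26a9 and Slc26a4, with 52.0% and 50.0% G and C, a TATA box began at 28 and 31 bases before the RefSeq start, and in Slc26a9 it overlapped a match on the opposite strand. Both directions thus held 1 promoter of each kind. Among 32851 promoters of this length 13.6% held the TATA box letters, 35.7% the GC box and 12.4% the response element core. These are letter matches and not sites shown to be bound.

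Levels between genes were compared by the authors' FPKM, which divides by exonic length. Car2 was the highest of the 10 in all 7 groups, at 134 FPKM in KO passage 5 organoids, the lowest group, to 374 FPKM in WT passage 10 organoids, the highest. At most 1.94% of tested genes had a higher FPKM in any group. Slc9a4 came next in each group, at 24.7 to 106 FPKM, and Kcnq1 (12.9 to 26.2 FPKM) and Aqp5 (2.68 to 25.8 FPKM) were moderate. Cftr ranged over 1.38 to 10.8 FPKM. The group means of Slc26a9, Ckb and Clic6 were at most 2.37 FPKM, and those of the pump gene Atp4a were at most 0.937 FPKM. Slc26a4 was at or near 0 in WT organoids and reached 0.363 FPKM in KO passage 10 organoids.

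**Figure D1:**
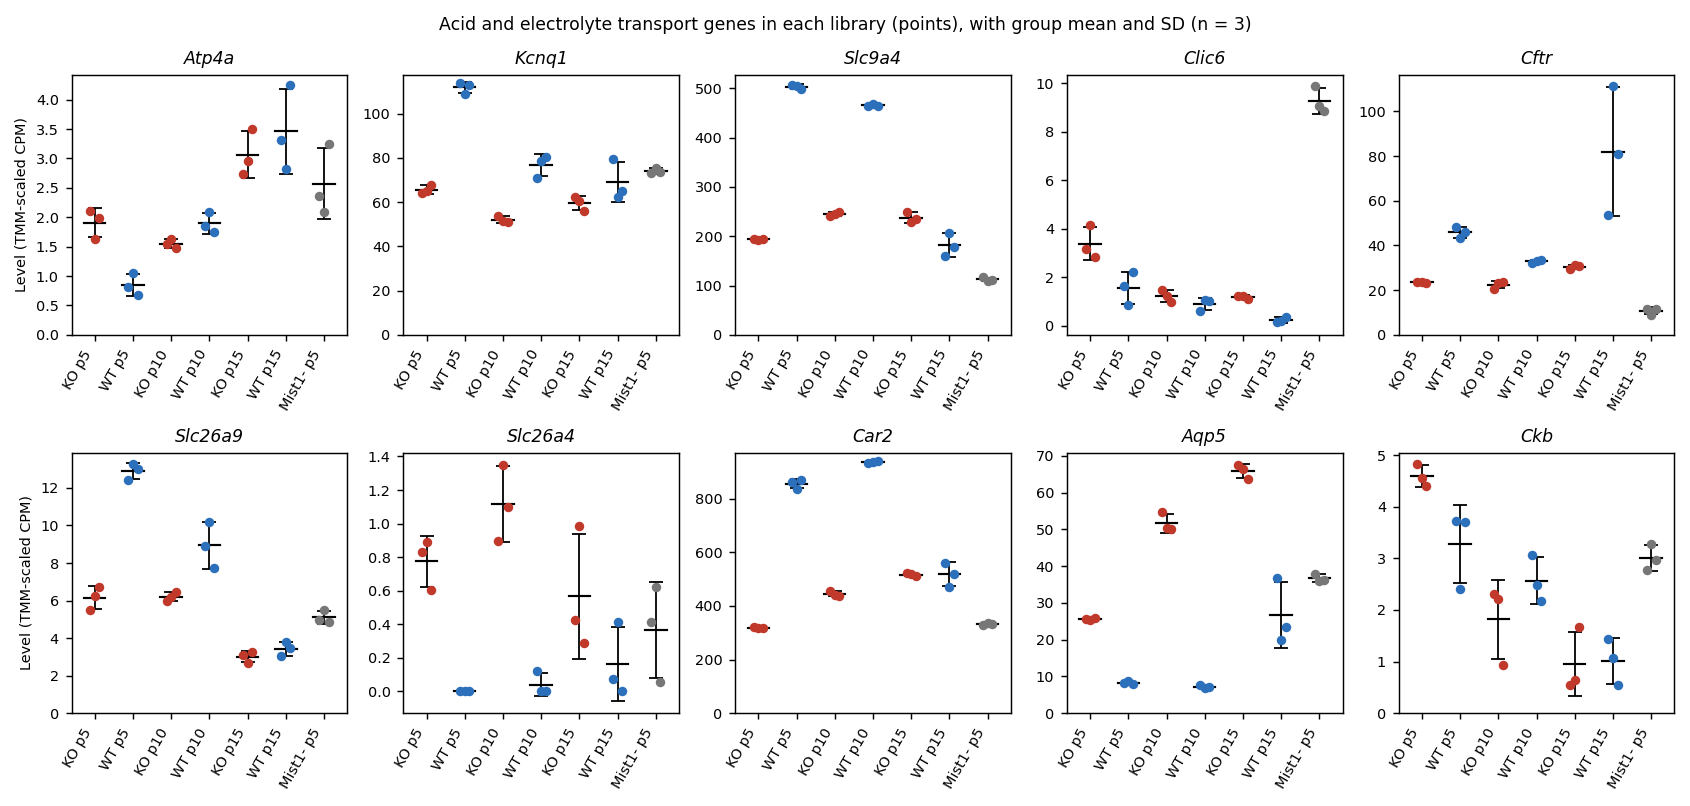
Level of each of the 10 genes in every library (points, TMM-scaled CPM on a linear axis that differs between panels), with the group mean and SD (bars, n = 3), for KO (red) and WT (blue) organoids at each passage and Mist1- organoids (grey). KO points lie below WT points at passages 5 and 10 for Kcnq1, Slc9a4, Cftr, Slc26a9 and Car2 and above them for Aqp5 and Slc26a4, and Cftr spreads over 53.6 to 111 CPM in WT passage 15 libraries.

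Organoids labelled Gpx4 KO were compared with WT at each passage. At passage 5 the genes split in direction. Slc9a4, Car2, Slc26a9, Cftr and Kcnq1 were lower in KO organoids, and Aqp5, Atp4a, Clic6 and Slc26a4 were higher. Slc26a4 passed the low-count filter through its KO libraries, where it is high, so it is left out of the counts and medians here and below, which cover the other 9 genes. Of these, 3 were called higher, against 13.0% of all genes tested, and 5 lower, against 17.0%, which made 8 called against 30.1%. The median size of the change was 1.12 on the log2 scale, against 0.22 over all genes. The genes were chosen with earlier results of these data known, so contrasts with all genes, here and below, are only descriptive. At passage 10 only Aqp5 was higher (15.9% of all genes were) and 5 genes were lower (18.5%), 6 in all against 34.4%, with a median size of 0.55 against 0.24. Without the WT passage 15 libraries in the fit, more genes of the whole table were called. With Slc26a4 counted, 10 of 10 were called at passage 5, against 7095 of 14984 genes (47.4%). At passage 10 it was 7 of 10, against 7794 of 14984 genes. At passage 15, 3 were higher (23.6%) and 2 lower (25.3%), 5 in all against 48.9%, a share near that of all genes, and 3 in all against 19.7% with only those 2 groups in the fit. The median size there was 0.21 against 0.33. The median with its sign was -0.77, -0.52 and -0.07 at passages 5, 10 and 15.

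**Figure D2:**
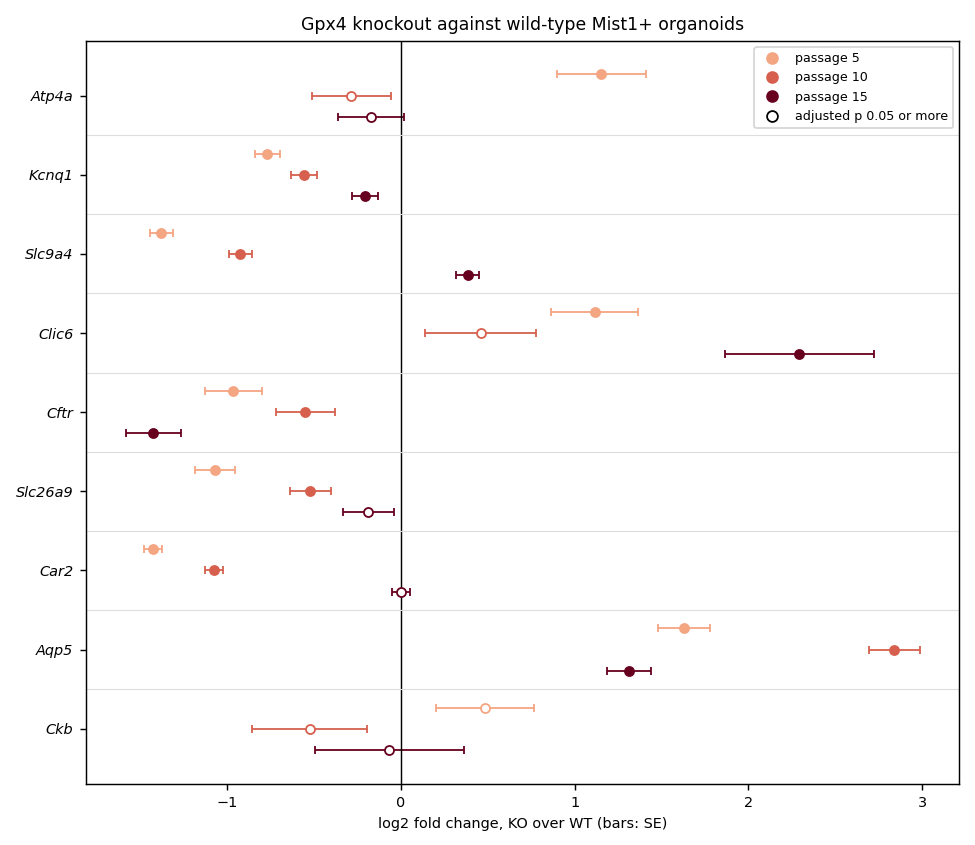
Log2 fold change of KO over WT organoids (x axis, bars are SE) for 9 of the genes at passages 5, 10 and 15, with open points where the adjusted p was 0.05 or more. Slc26a4 is left out because WT libraries were at or near 0. Slc9a4 goes from -1.38 at passage 5 to 0.38 at passage 15 and Car2 from -1.43 to 0.00, while Cftr stays below 0 and Aqp5 above 0 at all 3 passages.

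Among the genes of the acid-secreting machinery, the proton pump alpha subunit Atp4a (ENSMUSG00000005553, chromosome 7, 30712209 to 30725534, plus strand in GENCODE M21 on GRCm38, as for all coordinates here) was scarce in every library. At passage 5 it had 2.10, 1.62 and 1.99 CPM in KO libraries and 0.814, 1.06 and 0.686 CPM in WT libraries, from 38, 31 and 33 counts and 12, 15 and 10 counts. Every KO library was above every WT library (log2 fold change 1.15 ± 0.26, adjusted p = 0.00144). At passage 10 it had 1.54, 1.64 and 1.49 CPM in KO and 1.86, 2.09 and 1.74 CPM in WT libraries, where the KO values lay below the WT values without a call (log2 -0.28 ± 0.23, adjusted p = 0.36). At passage 15 the values were 2.73, 2.96 and 3.51 CPM in KO and 3.31, 2.83 and 4.25 CPM in WT libraries, which overlapped (log2 -0.17 ± 0.19, adjusted p = 0.464). The gene of the other pump subunit, Atp4b, was at or near 0 throughout, and the parietal marker sum, 89.4 to 94.2 CPM in KO and 37.9 to 44.8 CPM in WT libraries at passage 5, was carried by the potassium channel Kcnj15.

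Kcnq1 (ENSMUSG00000009545, chromosome 7, 143106362 to 143427042, plus strand) encodes the potassium channel that returns potassium to the gland lumen for the pump. It had 64.0, 65.1 and 67.9 CPM in KO libraries and 114, 109 and 113 CPM in WT libraries at passage 5 (log2 fold change -0.77 ± 0.072, adjusted p = 4.58e-08). KO values were well below WT values, with no overlap. Its passage 10 level was 53.8, 51.3 and 51.1 CPM in KO and 71.0, 78.8 and 80.4 CPM in WT libraries, again lower in each KO library (log2 -0.56 ± 0.073, adjusted p = 4.4e-06). At passage 15, with 62.4, 60.5 and 56.0 CPM in KO and 79.3, 62.5 and 65.0 CPM in WT libraries, the groups were separated by less than 0.1 CPM (log2 -0.21 ± 0.073, adjusted p = 0.0245). That last call was lost when the fit held only those 2 groups (adjusted p = 0.228), without a low-count filter (0.0712), without KO replicate 3 (0.117) and without WT replicate 1 (0.171). The opposite-strand Kcnq1ot1 shares 121 exonic bases with Kcnq1 and held 105 to 365 counts, and without a stated strand setting reads of the shared bases cannot be told apart.

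Slc9a4 (ENSMUSG00000026065, chromosome 1, 40580081 to 40630725, plus strand) encodes NHE4, a basolateral sodium-proton exchanger of gastric gland cells. At passage 5 it had 194, 193 and 194 CPM in KO libraries and 506, 506 and 498 CPM in WT libraries, a 2.60-fold lower level in KO organoids with almost no spread within either group (log2 fold change -1.38 ± 0.067, adjusted p = 1.19e-12). At passage 10 it had 241, 245 and 249 CPM in KO and 464, 468 and 464 CPM in WT libraries and was again lower in KO organoids (log2 -0.93 ± 0.066, adjusted p = 7.2e-10). At passage 15 the order turned, with 249.9, 228 and 234 CPM in KO and 159.6, 207 and 179 CPM in WT libraries (log2 0.38 ± 0.066, adjusted p = 8.28e-05). This call was lost with only those 2 groups in the fit (adjusted p = 0.0578). The pit marker sum stood in the same order at each passage, lower in KO libraries at 5 and 10 and higher at 15, and its part in the result was not tested. Gm37435 on the opposite strand shares 764 exonic bases with Slc9a4 and held 12 to 92 counts.

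Clic6 (ENSMUSG00000022949, chromosome 16, 92485736 to 92541243, plus strand) belongs to the chloride intracellular channel family and is known in rabbit parietal cells as parchorin. At passage 5 it had 3.16, 4.14 and 2.84 CPM in KO libraries and 1.63, 0.847 and 2.19 CPM in WT libraries. KO values were higher without overlap, although the WT replicates were widely spread (log2 fold change 1.12 ± 0.25, adjusted p = 0.00161). At passage 10 it had 1.48, 1.21 and 0.990 CPM in KO and 0.60, 1.04 and 1.00 CPM in WT libraries, which overlapped (log2 0.46 ± 0.32, adjusted p = 0.291). At passage 15 it had 1.21, 1.22 and 1.09 CPM in KO libraries and 0.144, 0.177 and 0.369 CPM in WT libraries, from 20, 21 and 19 counts and 2, 3 and 6 counts (log2 2.29 ± 0.43, adjusted p = 0.000198).

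Of the anion transporters, Cftr (ENSMUSG00000041301, chromosome 6, 18170687 to 18322768, plus strand), the cyclic AMP-gated chloride and bicarbonate channel, was lower in KO organoids at every passage. At passage 5 it had 23.6, 23.7 and 23.1 CPM in KO libraries and 48.3, 43.2 and 46.1 CPM in WT libraries (log2 fold change -0.97 ± 0.16, adjusted p = 0.00011). The passage 10 values were 20.7, 23.2 and 23.6 CPM in KO and 32.2, 33.1 and 33.6 CPM in WT libraries (log2 -0.55 ± 0.17, adjusted p = 0.0146). The groups did not overlap at either passage, but the passage 10 call was lost without KO replicate 1 (adjusted p = 0.0609) and on the log2(FPKM + 1) scale in limma (0.0732). At passage 15 it had 29.7, 31.1 and 31.0 CPM in KO libraries and 53.6, 111 and 80.8 CPM in WT libraries (log2 -1.43 ± 0.16, adjusted p = 3.67e-07). KO values were tightly grouped there, and WT values were spread widely but all above them. Ionocyte markers, another known site of Cftr in epithelia, summed to 17.6 to 19.7 CPM in KO and 77.8 to 84.2 CPM in WT libraries at passage 5. At passage 10 the sums were 12.4 to 14.15 CPM in KO and 75.4 to 82.8 CPM in WT libraries. At passage 15 they were 28.7 to 31.8 CPM in KO and 6.71 to 9.07 CPM in WT libraries, the opposite order to Cftr. Their defining factor Foxi1 was at 0 in every library and 6 of 7 markers were under 1 CPM, and the sum was carried by Atp6v0d2.

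Slc26a9 (ENSMUSG00000042268, chromosome 1, 131744022 to 131771504, plus strand) encodes a chloride channel and transporter of gastric surface epithelium, and was, like Cftr, lower in KO organoids at passages 5 and 10. At passage 5 it had 5.48, 6.24 and 6.70 CPM in KO libraries and 12.4, 13.3 and 13.0 CPM in WT libraries (log2 fold change -1.07 ± 0.11, adjusted p = 2.61e-07). The passage 10 values were 5.97, 6.19 and 6.43 CPM in KO and 8.93, 10.2 and 7.71 CPM in WT libraries (log2 -0.52 ± 0.12, adjusted p = 0.00152). KO libraries were lower without overlap at both. At passage 15 both groups were low and overlapped, with 3.10, 2.67 and 3.28 CPM in KO and 3.02, 3.77 and 3.45 CPM in WT libraries (log2 -0.19 ± 0.15, adjusted p = 0.326).

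Slc26a4 (ENSMUSG00000020651, chromosome 12, 31519827 to 31559969, minus strand) encodes pendrin, a chloride, bicarbonate and iodide exchanger best known from the thyroid, kidney and inner ear. At passage 5 the KO libraries held 15, 17 and 10 counts and each WT library held 0. Against a floor of 3 counts over the WT group the KO level was 11.3-fold higher (adjusted p = 0.0015). At passage 10 KO libraries held 14, 19 and 20 counts and WT libraries 2, 0 and 0, a ratio of 28.2 with a 95% counting interval of 7.44 to 239 (adjusted p = 0.000751). At passage 15 there were 7, 17 and 5 counts in KO libraries and 1, 7 and 0 in WT libraries, which overlapped (adjusted p = 0.0868). Without WT replicate 2, which held 7 of the 8 WT counts, the passage 15 difference was called (adjusted p = 0.00596). Its calls rest on few counts and on a filter that it passed where it was high.

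Car2 (ENSMUSG00000027562, chromosome 3, 14886273 to 14900770, plus strand), the cytosolic carbonic anhydrase, was the most abundant of the 10 genes and among the most reproducible. Its level at passage 5 was 321, 319 and 316 CPM in KO libraries and 862, 838 and 869 CPM in WT libraries, 2.69-fold lower in KO organoids (log2 fold change -1.43 ± 0.053, adjusted p = 2.14e-14). At passage 10 the values were 455, 442 and 437 CPM in KO and 933, 936 and 939.7 CPM in WT libraries (log2 -1.07 ± 0.053, adjusted p = 2.18e-12). No KO library reached a WT library at these passages. At passage 15 the means met, at 517 ± 4.70 CPM in KO and 517 ± 44.9 CPM in WT organoids (SD, n = 3 each; log2 0.00 ± 0.052, adjusted p = 0.989).

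Aqp5 (ENSMUSG00000044217, chromosome 15, 99590782 to 99594829, plus strand), a water channel of secretory glands that in mouse stomach is known from the base of pyloric glands, was higher in KO organoids at all 3 passages. Its level at passage 5 was 25.5, 25.3 and 25.8 CPM in KO libraries and 8.14, 8.68 and 7.95 CPM in WT libraries (log2 fold change 1.63 ± 0.15, adjusted p = 3.98e-08). At passage 10 the gap was widest, with 54.7, 50.5 and 50.0 CPM in KO and 7.55, 6.85 and 7.23 CPM in WT libraries, a 7.16-fold difference (log2 2.84 ± 0.15, adjusted p = 4.81e-12). At passage 15 the values were 67.5, 66.4 and 63.8 CPM in KO and 36.8, 20.0 and 23.3 CPM in WT libraries (log2 1.31 ± 0.13, adjusted p = 4.37e-08). Each KO library was above each WT library of its passage. The 4 mucous neck markers summed to 413 to 428 CPM in KO and 331 to 332 CPM in WT libraries at passage 5, 336 to 354 CPM in KO and 279 to 286 CPM in WT libraries at passage 10, and 327 to 346 CPM in KO and 337 to 389.9 CPM in WT libraries at passage 15. Tff2, the trefoil peptide of neck cells, was higher in KO organoids at each passage, with 96.5 ± 0.792 CPM in KO and 24.9 ± 1.99 CPM in WT organoids at passage 5 (log2 1.95 ± 0.17, adjusted p = 1.53e-08), log2 0.48 ± 0.18, adjusted p = 0.0392 at passage 10 and log2 1.87 ± 0.17, adjusted p = 1.39e-08 at passage 15. Cd44, the largest part of the sum, was not called at passage 5 (log2 0.19 ± 0.076, adjusted p = 0.0739), was higher at passage 10 (log2 0.37 ± 0.076, adjusted p = 0.000653) and lower at passage 15 (log2 -0.43 ± 0.076, adjusted p = 0.000129), Glipr1 was lower at each passage, and Muc6 was under 1 CPM in every group. The part of such cells in the Aqp5 result was not tested.

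Ckb (ENSMUSG00000001270, chromosome 12, 111669361 to 111672338, minus strand), the brain-type creatine kinase that buffers ATP at ion pumps, was not called at any passage. It had 4.82, 4.56 and 4.41 CPM in KO libraries and 3.73, 2.40 and 3.70 CPM in WT libraries at passage 5, where KO values were higher without overlap (log2 0.48 ± 0.28, adjusted p = 0.221). Without WT passage 15 libraries in the fit it was called there (adjusted p = 0.0463), when 47.4% of all genes were. At passages 10 and 15 KO and WT libraries overlapped, with log2 fold changes of -0.52 (adjusted p = 0.239) and -0.07 (adjusted p = 0.914).

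Passage was then compared within each genotype, with passage 5 shared by both comparisons of a genotype and the same libraries as above. In KO organoids Aqp5, Car2 and Slc9a4 were higher and Clic6 and Ckb lower at both later passages than at passage 5. At passage 10 against 5, 3 of the 9 genes rose (3.89% of all genes) and 3 fell (3.72%), 6 in all against 7.61%. At passage 15 against 5, 4 rose (5.77%) and 3 fell (7.20%), 7 in all against 13.0%. Aqp5 averaged 25.6 ± 0.265, 51.7 ± 2.57 and 65.9 ± 1.89 CPM at passages 5, 10 and 15 (SD, n = 3 each), with no overlap between passages (log2 1.02 ± 0.13, adjusted p = 1.24e-05 for passage 10 and log2 1.37 ± 0.13, adjusted p = 8.23e-08 for passage 15). Car2 likewise averaged 319 ± 2.78, 445 ± 9.19 and 517 ± 4.70 CPM in that order (log2 0.70 ± 0.053, adjusted p = 3.61e-09 at passage 15). Slc9a4 gained less, with 194 ± 0.827, 245 ± 4.15 and 238 ± 11.1 CPM (log2 0.30 ± 0.066, adjusted p = 0.0034).

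Clic6 dropped to 1.23 ± 0.243 CPM at passage 10 and 1.17 ± 0.0714 CPM at passage 15, against 3.38 ± 0.679 CPM at passage 5 in KO organoids (log2 -1.52 ± 0.25, adjusted p = 0.000197 at passage 15). Ckb had 2.31, 2.2 and 0.935 CPM in the passage 10 libraries and 0.546, 0.638 and 1.67 CPM in those of passage 15, against 4.82, 4.56 and 4.41 CPM in those of passage 5. Its later libraries were all below its passage 5 libraries (log2 -1.37 ± 0.31, adjusted p = 0.00593 for passage 10 and log2 -2.26 ± 0.34, adjusted p = 5.12e-05 for passage 15). The passage 10 call ended without KO passage 10 replicate 3 (adjusted p = 0.0589). Slc26a9 fell at passage 15 (log2 -1.02 ± 0.13, adjusted p = 9.93e-06), with log2 0.02 ± 0.12, adjusted p = 0.982 at passage 10. Kcnq1 fell at passage 10 (log2 -0.33 ± 0.073, adjusted p = 0.00502). Atp4a rose at passage 15 (log2 0.69 ± 0.2, adjusted p = 0.0261), a call that ended without a low-count filter (adjusted p = 0.087) and without KO passage 5 replicate 2 (0.131) or 3 (0.0573) or KO passage 15 replicate 2 (0.0549) or 3 (0.132). Cftr and Slc26a4 were not called at either passage. Without the WT passage 15 libraries in the fit, all 9 genes were called at passage 15 against 5, when 30.0% of all genes were, with Cftr higher (adjusted p = 1.8e-06) and Kcnq1 lower (0.0116) besides.

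In WT organoids the changes to passage 10 were smaller than those to passage 15, with a median size over the 9 genes of 0.48 and 1.68 on the log2 scale. At passage 10 against 5, Atp4a rose, to 1.9 ± 0.175 CPM at passage 10 against 0.853 ± 0.189 CPM at passage 5 (log2 1.14 ± 0.26, adjusted p = 0.00878). Kcnq1 (log2 -0.54 ± 0.072, adjusted p = 4.09e-05) and Slc26a9 (log2 -0.53 ± 0.11, adjusted p = 0.0041) fell. That is 1 higher (2.04% of all genes) and 2 lower (2.84%), 3 in all against 4.88%. The Atp4a call ended without WT passage 5 replicate 3 (adjusted p = 0.0626). Fitted without the passage 15 WT libraries, 7 of the 9 genes were called, against 18.5% of all genes, with Car2 higher (adjusted p = 2.34e-09) and Cftr (1.86e-10), Slc9a4 (2.4e-05) and Clic6 (0.0463) lower besides. In the fit over all groups, Clic6 was also called without WT passage 5 replicate 2 (adjusted p = 0.0344). Aqp5 stayed low, at 7.21 ± 0.353 CPM at passage 10 and 8.26 ± 0.376 CPM at passage 5.

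At passage 15 against 5 in WT organoids, Aqp5 (log2 1.68 ± 0.15, adjusted p = 1.34e-08), Atp4a (log2 2.01 ± 0.24, adjusted p = 6.66e-07) and Cftr (log2 0.84 ± 0.16, adjusted p = 0.00016) rose. Clic6 (log2 -2.70 ± 0.41, adjusted p = 1.8e-05), Slc26a9 (log2 -1.91 ± 0.12, adjusted p = 9.59e-11), Ckb (log2 -1.70 ± 0.36, adjusted p = 0.000557), Slc9a4 (log2 -1.47 ± 0.067, adjusted p = 2.18e-13), Car2 (log2 -0.73 ± 0.052, adjusted p = 4.39e-10) and Kcnq1 (log2 -0.70 ± 0.072, adjusted p = 9.36e-08) fell. These are 3 higher (24.7% of all genes) and 6 lower (26.6%), 9 in all against 51.3%. With only those 2 groups in the fit, 9 of 9 genes tested were called, against 3631 of 13776 genes. Slc26a4 had 8 counts at passage 15 against 0 at passage 5, 2.46-fold higher against the floor of 3 counts and not called (adjusted p = 0.0662). WT passage 15 replicate 2 held 7 of the 8 counts. Without it 1 count was left, under the floor of 3 counts (adjusted p = 0.364), and without replicate 1 or 3 the gene was called (0.0359 and 0.0301). Aqp5 in WT passage 15 libraries, 36.8, 20.0 and 23.3 CPM, was above every WT library of the earlier passages, and replicate 1 was highest for Aqp5 and lowest for Cftr. Pit markers summed to 914 to 1539 CPM in these libraries and 4957 to 5102 CPM at passage 5, and their part in these changes was not tested.

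**Figure D3:**
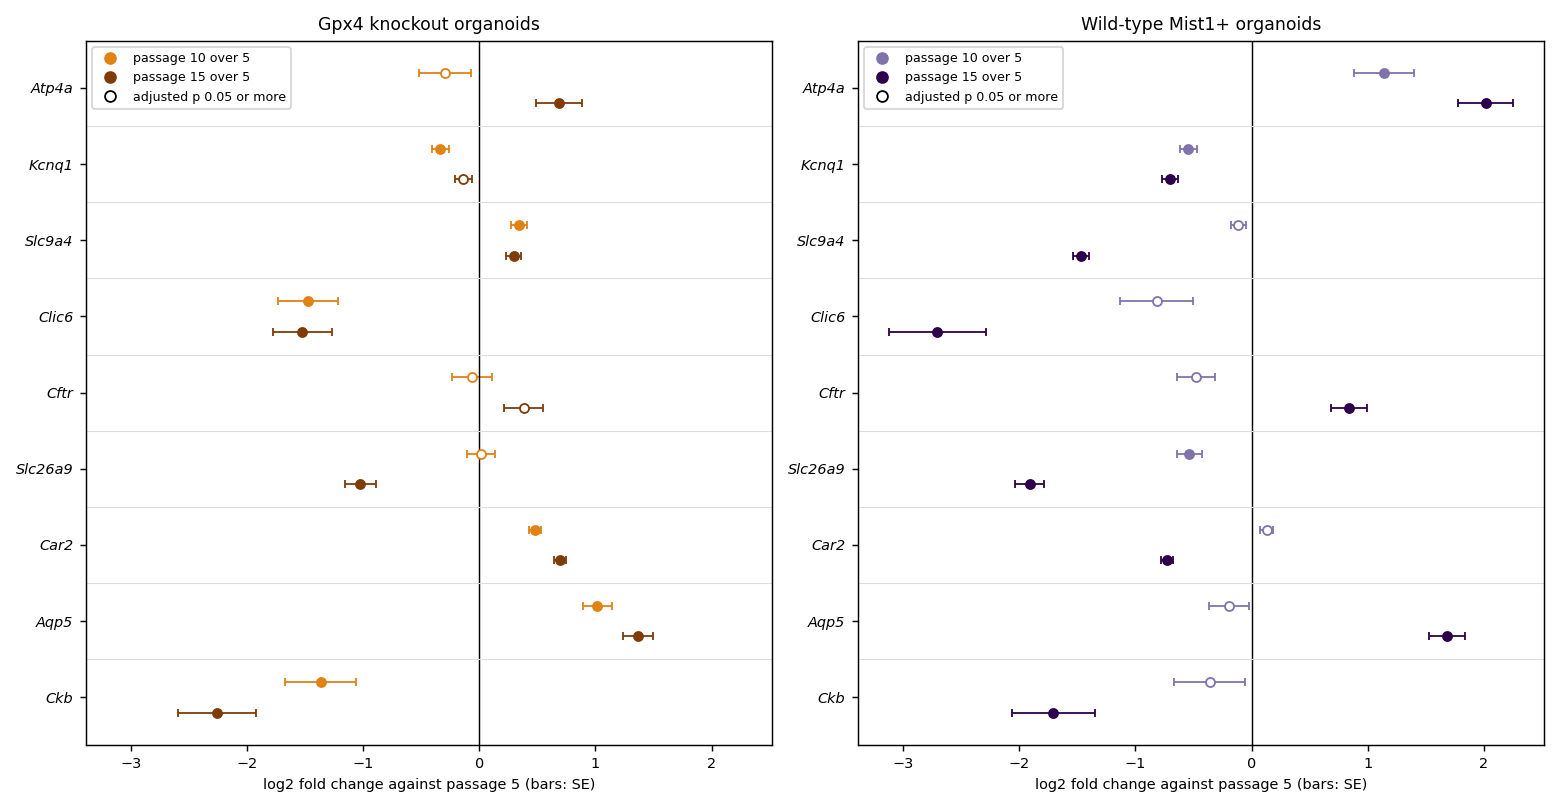
Log2 fold change of passages 10 and 15 against passage 5 (x axis, bars are SE) for 9 of the genes in KO organoids (left) and WT organoids (right), with open points where the adjusted p was 0.05 or more. Slc26a4 is left out because the WT passage 5 libraries held 0 counts. At passage 15 Car2 is higher in KO (0.70) and lower in WT (-0.73), as is Slc9a4 (0.30 and -1.47), while Aqp5 is higher in both (1.37 and 1.68).

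Whether the KO difference itself changed with passage was tested by an interaction term. At passage 10 it was called for 4 of the 9 genes, 3 higher (3.13% of all genes) and 1 lower (2.81%), 4 in all against 5.93%. The difference became more positive for Aqp5 (log2 1.21 ± 0.21, adjusted p = 0.000967), Slc9a4 (log2 0.45 ± 0.093, adjusted p = 0.00346) and Car2 (log2 0.35 ± 0.074, adjusted p = 0.00453), and more negative for Atp4a (log2 -1.44 ± 0.34, adjusted p = 0.0116). Without the passage 15 WT libraries in the fit 8 were called, against 20.1% of all genes. Slc26a9 was also called without KO passage 5 replicate 3 (adjusted p = 0.05 after rounding) or WT passage 10 replicate 2 (0.0237). At passage 15 the term was called for 5 genes, 4 higher (19.7%) and 1 lower (18.6%), 5 in all against 38.3%. Its highest values were those of Slc9a4 (log2 1.76 ± 0.094, adjusted p = 4.99e-12) and Car2 (log2 1.42 ± 0.074, adjusted p = 3.74e-12), followed by Slc26a9 (log2 0.88 ± 0.19, adjusted p = 0.000867) and Kcnq1 (log2 0.56 ± 0.1, adjusted p = 0.000215), and it was negative for Atp4a (log2 -1.33 ± 0.32, adjusted p = 0.00259). For Slc9a4 and Car2 this rests on a rise in KO and a fall in WT organoids, and the WT part comes from the libraries that stood apart. The term was also called, and negative, for Cftr without WT passage 15 replicate 1 (log2 -0.69, adjusted p = 0.000141) and for Aqp5 without replicate 2 (log2 -0.49, adjusted p = 0.012). Clic6 was called, with a positive term, without KO passage 5 replicate 2 (0.0491), WT passage 5 replicate 2 (0.0179) or WT passage 15 replicate 3 (0.0419). Slc26a4 was called, with a negative term, without KO passage 15 replicate 2 (0.039) or WT passage 15 replicate 1 (0.032) or 3 (0.0318), but not without WT passage 15 replicate 2 (0.336).

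WT Mist1+ organoids were compared with Mist1- organoids at passage 5, with the same WT libraries as in the KO comparison. Mist1+ organoids had more of Slc9a4, Cftr, Car2, Slc26a9 and Kcnq1 and less of Clic6, Aqp5, Atp4a and Slc26a4. Of the 9 genes apart from Slc26a4, 5 rose (18.8% of all genes) and 3 fell (16.2%), 8 in all against 35.0%, with a median size of 1.58 on the log2 scale against 0.25. Without the WT passage 15 libraries in the fit, 9 of 10 were called with Slc26a4 counted, against 7875 of 14984 genes. With only the groups compared, 8 of 9 genes tested were called, against 7713 of 13917 genes. Slc9a4 had 506, 506 and 498 CPM in Mist1+ libraries and 117, 110.0 and 112 CPM in Mist1- libraries (log2 fold change 2.16 ± 0.069, adjusted p = 5.82e-16). Cftr had 48.3, 43.2 and 46.1 CPM in Mist1+ and 11.7, 8.89 and 11.5 CPM in Mist1- libraries (log2 2.10 ± 0.18, adjusted p = 6.89e-09). Both genes were more than 4-fold higher in Mist1+ organoids, with no overlap.

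Car2 averaged 856 ± 16.3 CPM in Mist1+ and 333 ± 3.13 CPM in Mist1- organoids (log2 1.36 ± 0.053, adjusted p = 1.84e-14), Slc26a9 12.9 ± 0.439 and 5.10 ± 0.343 CPM (log2 1.34 ± 0.12, adjusted p = 9.16e-09), and Kcnq1 112 ± 2.57 and 74.0 ± 1.24 CPM (log2 0.60 ± 0.072, adjusted p = 9.79e-07; SD, n = 3 each). Clic6 had 1.63, 0.847 and 2.19 CPM in Mist1+ and 9.88, 9.06 and 8.87 CPM in Mist1- libraries, its highest level in any group (log2 -2.56 ± 0.23, adjusted p = 1.23e-08). Aqp5 had 8.14, 8.68 and 7.95 CPM in Mist1+ and 37.9, 35.9 and 36.3 CPM in Mist1- libraries (log2 -2.15 ± 0.15, adjusted p = 2.2e-10). Every Mist1- library exceeded every Mist1+ library for these 2 genes, as for Atp4a, with 0.814, 1.06 and 0.686 CPM in Mist1+ and 2.37, 2.10 and 3.25 CPM in Mist1- libraries (log2 -1.58 ± 0.24, adjusted p = 2.5e-05). Slc26a4 had 0 counts in Mist1+ libraries against 7, 11 and 1 in Mist1- libraries, 5.35-fold lower with the Mist1+ group set at the floor of 3 counts (adjusted p = 0.0146). That call ended without Mist1- replicate 2 (adjusted p = 0.0607). Ckb did not pass the test (log2 0.12 ± 0.3, adjusted p = 0.79). Mucous neck markers summed to 331 to 332 CPM in Mist1+ and 745 to 779 CPM in Mist1- libraries, and pit markers to 4957 to 5102 and 595 to 627 CPM, and their part in these differences was not tested. Of the neck sum, Tff2 had 24.9 ± 1.99 CPM in Mist1+ and 480.4 ± 11.3 CPM in Mist1- organoids (log2 -4.27 ± 0.18, adjusted p = 6.88e-14). Cd44 was not called (log2 0.08 ± 0.076, adjusted p = 0.468), and Glipr1 was higher in Mist1+ organoids (log2 0.28 ± 0.086, adjusted p = 0.0144). Bhlha15 itself averaged 5.50 ± 0.625 CPM in Mist1+ and 10.4 ± 2.15 CPM in Mist1- organoids, lower in the organoids labelled Mist1+ (log2 -0.91 ± 0.14, adjusted p = 1.89e-05).

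The order of the group means differed between the genes. Slc9a4, Kcnq1 and Slc26a9 were highest in WT passage 5 organoids and Car2 in WT passage 10 organoids. Neighbours in the order of Slc9a4 were apart except KO passage 10 and KO passage 15, and KO passage 5 and WT passage 15, whose libraries overlapped. For Car2 only the WT and KO passage 15 groups overlapped as neighbours. Cftr and Atp4a were highest in WT passage 15 organoids, and for Atp4a each of the top 4 groups overlapped the next, while WT passage 10 libraries lay above KO passage 10 libraries and these above WT passage 5 libraries. Aqp5 was highest in KO passage 15, then KO passage 10 and Mist1- organoids, and the 3 groups that follow KO passage 10 overlapped one another in turn. Clic6 was highest in Mist1-, then KO passage 5 organoids. Slc26a4 had its highest mean in KO passage 10 organoids, apart from KO passage 5, and all later neighbours overlapped. Ckb was highest in KO passage 5 organoids, and its other groups overlapped each neighbour in turn.

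Other genes of the pathway came from 7 lists of 65 genes, 55 of them outside the 10, and 36 of these passed the low-count filter. In KO organoids at passage 5, 8 of the 36 rose and 14 fell, when 13.0% of all genes rose and 17.0% fell, with a median log2 fold change of -0.21. Chrm3, the muscarinic acetylcholine receptor through which vagal signals drive acid secretion (log2 1.45 ± 0.34, adjusted p = 0.0022), and the inward rectifier potassium channel Kcnj15 (log2 1.13 ± 0.11, adjusted p = 6.02e-08) rose most. Aqp3, a basolateral water and glycerol channel, had 1.66 ± 0.405 CPM in KO and 12.9 ± 0.745 CPM in WT organoids (log2 -2.95 ± 0.21, adjusted p = 8.43e-10), the opposite direction to Aqp5. The sodium-proton exchanger Slc9a2 had 33.8 ± 0.245 CPM in KO and 81.2 ± 4.34 CPM in WT organoids (log2 -1.26 ± 0.064, adjusted p = 2.29e-12), the same direction as Slc9a4. By list, the genes that rose and fell, the 10 included, were, beside those shares of 13.0% and 17.0%, 3 and 5 of 9 for the acid secretion machinery, 1 (Slc26a4) and 3 of 10 for chloride and bicarbonate transporters, and 2 and 3 of 6 for carbonic anhydrases. They were 1 and 1 of 4 for aquaporins, 2 and 5 of 10 for sodium and potassium transport, 2 and 2 of 5 for creatine and phosphocreatine, and 1 and 0 of 2 for acid secretion receptors.

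At passage 10, 4 of the 36 rose (15.9% of all genes) and 16 fell (18.5%), with a median of -0.24. Gatm, the first enzyme of creatine synthesis (log2 1.00 ± 0.097, adjusted p = 6.88e-08), and the anion transporter Slc26a11 (log2 0.82 ± 0.29, adjusted p = 0.0364) rose most, and Aqp3 (log2 -1.74 ± 0.19, adjusted p = 3.32e-07) and Car8, a carbonic anhydrase relative without enzyme activity (log2 -0.999 ± 0.26, adjusted p = 0.00437), fell most. Slc26a11 was scarce and its groups overlapped, with 1.22, 2.42 and 1.98 CPM in KO and 0.899, 0.978 and 1.27 CPM in WT libraries. At passage 15, against the WT group that stood apart, 20 were higher (23.6% of all genes) and 9 lower (25.3%), with a median of 0.25. Chrm3 had 4.10 ± 0.444 CPM in KO and 0.956 ± 0.137 CPM in WT organoids (log2 2.09 ± 0.28, adjusted p = 4.15e-06), and Kcnj15 119.6 ± 2.49 and 27.9 ± 7.42 CPM (log2 2.09 ± 0.11, adjusted p = 2.65e-12). Car8 (log2 -2.97 ± 0.23, adjusted p = 1.47e-09) and Kcnn4, a calcium-activated potassium channel (log2 -1.48 ± 0.14, adjusted p = 4.15e-08), fell most. Aqp3, lower at passages 5 and 10, was higher in KO organoids at passage 15 (log2 1.55 ± 0.23, adjusted p = 1.8e-05), and the interaction for passage 15 was called (log2 4.50 ± 0.32, adjusted p = 5.07e-10). In Mist1+ against Mist1- organoids 19 of the 36 rose (18.8% of all genes) and 7 fell (16.2%), with a median of 0.32, led by Aqp3 (log2 3.41 ± 0.23, adjusted p = 1.23e-10) and Car8 (log2 2.62 ± 0.31, adjusted p = 9.18e-07) upward and Slc26a11 (log2 -1.35 ± 0.28, adjusted p = 0.000608) and the non-gastric proton pump subunit Atp12a (log2 -1.14 ± 0.2, adjusted p = 9.54e-05) downward.

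Within genotype, 5 of the 36 rose (3.89% of all genes) and 7 fell (3.72%) in KO organoids at passage 10 against 5, and 7 rose (5.77%) and 6 fell (7.20%) at passage 15 against 5. The largest changes at passage 15 were Aqp3 (log2 1.68 ± 0.23, adjusted p = 1.98e-05) and Chrm3 (log2 1.21 ± 0.25, adjusted p = 0.00174) upward, and Car8 (log2 -2.53 ± 0.24, adjusted p = 9.4e-08) and the membrane carbonic anhydrase Car12 (log2 -1.74 ± 0.15, adjusted p = 2.77e-08) downward. In WT organoids 4 rose (2.04% of all genes) and 7 fell (2.84%) at passage 10, and 6 rose (24.7%) and 21 fell (26.6%) at passage 15. There Car8 (log2 1.55 ± 0.2, adjusted p = 2.6e-06) and Slc26a11 (log2 1.12 ± 0.29, adjusted p = 0.00292) rose most, and Aqp3 (log2 -2.81 ± 0.21, adjusted p = 1.08e-09) and Car12 (log2 -1.49 ± 0.13, adjusted p = 8.72e-09) fell most. Among the 19 listed genes below the filter were Atp4b, Kcne2, Slc26a7 and the histamine and gastrin receptors Hrh2 and Cckbr.

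**Figure D4:**
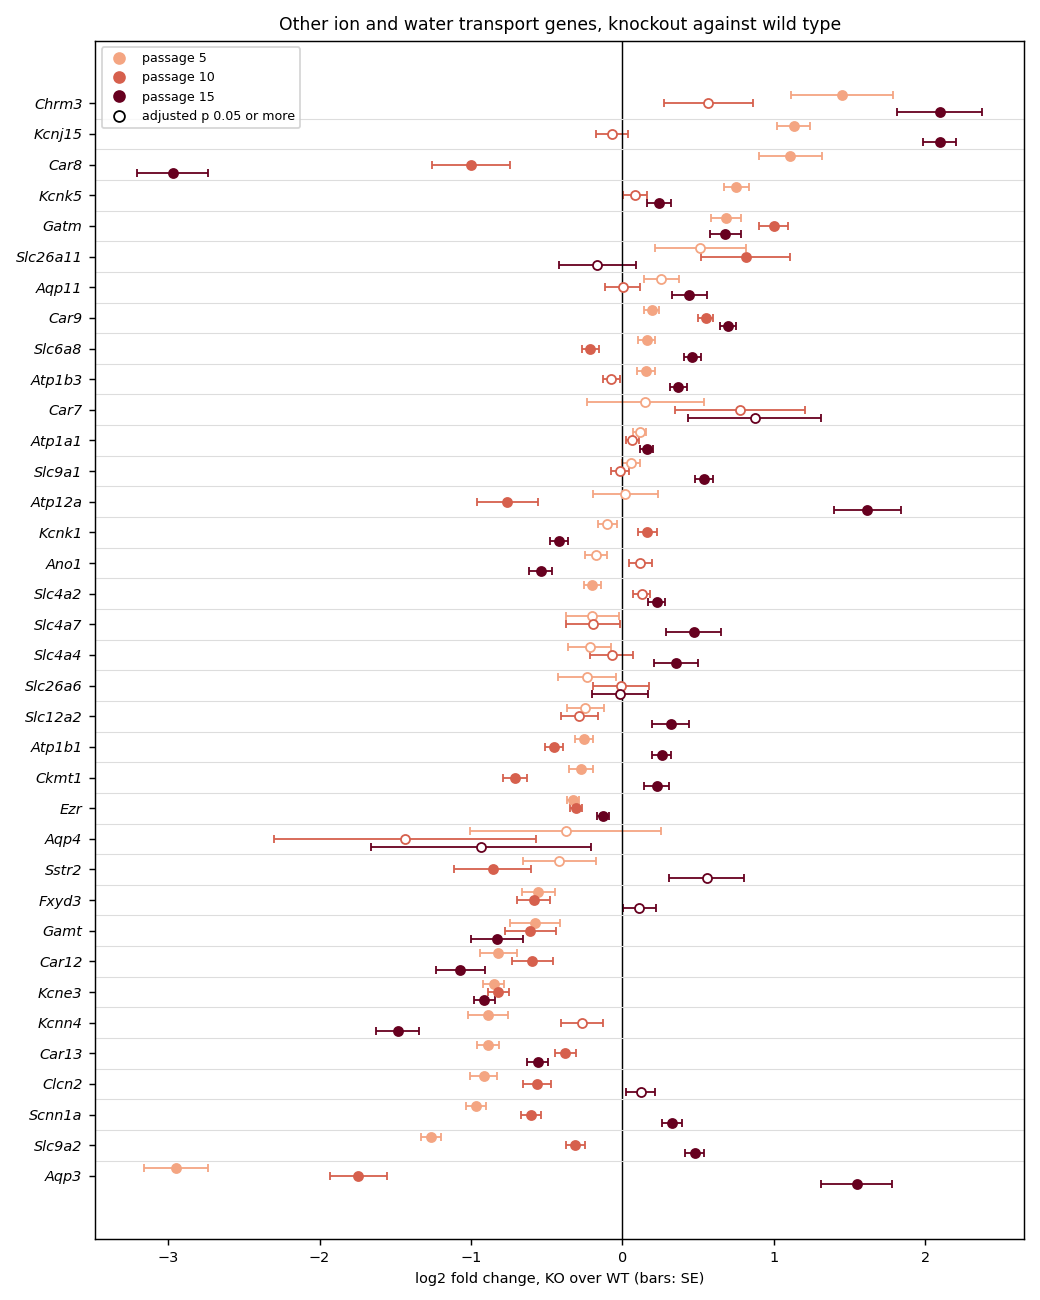
Log2 fold change of KO over WT organoids (x axis, bars are SE) for the 36 other transport genes tested, at passages 5, 10 and 15, in order of the passage 5 value, with open points where the adjusted p was 0.05 or more. Aqp3 has the lowest passage 5 value, -2.95, and a passage 15 value of 1.55, and Car8 has 1.11 and -2.97.

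By the correlation of log2(CPM + 1) over the 21 libraries, the genes whose pattern was most like each member were ranked among 11144 genes. The 21 libraries share 7 groups, so these values describe group patterns. Slc9a4 was most like the pit marker Ctse (r = 0.993), an aspartic protease of surface mucous cells, and Lypd8l (0.980). Cftr was most like Sestd1 (0.978) and Acsm3 (0.976), and Car2 like Tspan15 (0.973) and the sorbitol dehydrogenase Sord (0.965). Slc26a9 was closest to Ttc9 (0.964) and Dscaml1 (0.963), Aqp5 to the fatty acid desaturase Fads2 (0.961) and the kinase Hunk (0.946), and Clic6 to Stom (0.959) and the lysosomal protease Ctsl (0.948). For Kcnq1 the closest were Tcn2 (0.948) and Gstt3 (0.919), for Slc26a4 Iqgap3 (0.900) and Myh10 (0.884), for Atp4a Serinc3 (0.893) and Sgsh (0.890), and for Ckb Snhg11 (0.858) and Slfn4 (0.845).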

How the data were processed

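RNA-seq libraries of 21 organoid samples in 7 groups were analysed, of 27 samples in the labels; 6 samples of sorted cells had no columns in the table and were not analysed here. The authors deposited whole-number read counts per gene and FPKM; recomputing FPKM from counts, lengths and totals gave the deposited value, within 0.006, for 100% of entries. The submitters' processing notes name cutadapt 1.9.1, HISAT2 2.2.1 and HTSeq 0.6.1 with GRCm38.p5; the strand setting is not given in the sources used here. The table's gene coordinates matched GENCODE M21 for 1472 of 52073 shared identifiers, so coordinates were taken from GENCODE M21. Exonic lengths are the deposited ones.

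The counts went into edgeR 4.0.16 under R 4.3.3, with group means over all 21 libraries, TMM scaling, a low-count filter (filterByExpr, minimum count 10, minimum total 15; 15115 genes, 99.91% of counts) and robust quasi-likelihood F-tests, adjusted by Benjamini-Hochberg over all genes, threshold 0.05. An SE is the absolute log2 fold change over the square root of F. There were 10 comparisons. The code was tested on simulated data. Intervals are 95% and cover counting error only. A floor of 3 counts replaces a group total of 0, and a fold against it leaves out the counting error of the other group.

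The 10 genes, the 7 pathway lists and the 13 marker lists were chosen with earlier results of these data known. All 10 genes are described; of the other pathway genes, up to 2 per direction and comparison with the largest called change are named, and the 2 genes of highest correlation with each of the 10 among those averaging at least 1 CPM.

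Replicate numbers showed no pairing: over 63 pairs of same-numbered libraries in different groups the median correlation of deviations from the group means was -0.00197 (-0.0672 to 0.301). Over 126 pairs with different numbers it was 0.000913 (-0.312 to 0.294). This cannot exclude a shared mouse or batch, because replicates outside WT passage 15 differed by little more than sampling noise. Alternatives were median-ratio scaling, library totals alone, a filter at mean FPKM 1, no low-count filter, DESeq2 1.42.0, limma 3.58.1 on log2(FPKM + 1) or log2(FPKM + 0.1), only the groups compared, the fit without WT passage 15, the replicate number as a block, and each library left out.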

Additional observations from a re-analysis of the deposited data

Results flagged for a closer look

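The difference between KO and WT organoids changed with passage for some of the genes, by the interaction term of edgeR's quasi-likelihood test with Benjamini-Hochberg adjustment over all genes. With Slc26a4 left out, 4 of 9 genes were called at passage 10, when 5.93% of all genes were called. At passage 15, 5 of the 9 were called, when 38.3% of all genes were called too. Each value is the log2 KO effect at the later passage minus that at passage 5. For Atp4a it was -1.44 at passage 10 (adjusted p = 0.0116) and -1.33 at passage 15 (0.00259). For Slc9a4 it was 0.45 at passage 10 (0.00346) and 1.76 at passage 15 (4.99e-12), and for Car2 0.35 (0.00453) and 1.42 (3.74e-12). Aqp5 had 1.21 at passage 10 (0.000967), and Kcnq1 and Slc26a9 had 0.56 (0.000215) and 0.88 (0.000867) at passage 15. The passage 15 values rest on WT libraries that differed among themselves far more than other groups. Pit markers summed to 4714 to 4797 CPM in KO and 914 to 1539 CPM in WT libraries at passage 15. At passage 5 these sums were 1444 to 1468 and 4957 to 5102 CPM. The term of Atp4a was negative. At passage 15 itself Car2 (log2 -0.001, adjusted p = 0.989) and Slc26a9 (-0.19, 0.326) were not called between KO and WT organoids. Kcnq1 was lower in KO organoids there (-0.21, 0.0245). The part of the pit markers was not tested. Without the WT passage 15 libraries in the fit, the passage 10 term was also called for Kcnq1, Cftr and Slc26a9, all positive, and for Ckb, negative (log2 -1.01).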

How the results depend on the processing

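Of 100 tests of the 10 genes, library totals alone left all calls and directions as they were, and median-ratio scaling all but the direction of 1 uncalled value. Library totals moved the split of all called genes by over 10 points, to 3045 higher and 1952 lower (1970 and 2577 with TMM) for KO against WT at passage 5, 3323 and 2176 (2408 and 2796) at passage 10, 2393 and 3124 (2842 and 2448) for Mist1+ against Mist1-, 4706 and 3079 (3735 and 4026) for WT passage 15 against 5, and 2250 and 3674 (2984 and 2810) for the passage 15 interaction. Leaving out the low-count filter lost 2 calls and gained 6; limma on log2(FPKM + 1) lost 2 and gained 2, and DESeq2 lost 0 and gained 2.

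The choice of libraries in the fit moved counts most. Without WT passage 15, or with only the groups compared, 7095 or 7035 genes were called for KO against WT at passage 5 (4547 in the fit over all groups). For WT passage 10 against 5, 2766 or 2827 genes (738) and 7 of 10 or 6 of 9 genes tested (3 of 10) were called, for KO passage 10 against 5 3330 or 3059 genes (1150), for KO passage 15 against 5 4492 or 4606 genes (1960), and for the passage 10 interaction 3018 or 2951 genes (897) and 8 of 10 genes by either (4). With only the groups compared, KO against WT at passage 15 had 2735 genes (7396) and 3 of 9 genes tested (5 of 10), and WT passage 15 against 5 had 3631 genes (7761). Where 9 were tested, the low-count filter had removed Slc26a4. A mean FPKM of at least 1 left 6 of the 10 genes tested and 4 called for KO passage 15 against 5 (7).

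Directions that turned were of uncalled values. Car2 at passage 15, KO against WT, was -0.001, and 0.002 by median-ratio scaling, DESeq2 or only the groups compared, 0.008 without the filter, 0.011 at a mean FPKM of at least 1, 0.000 with the replicate block and -0.064 to 0.059 with 1 library left out. Over libraries left out, in the same comparison, Atp4a ranged over -0.308 to 0.005 and Ckb over -0.750 to 0.232. Slc26a4 for WT passage 10 against 5 ranged over 0.000 to 3.193, and Slc26a9 for KO passage 10 against 5 over -0.060 to 0.080, with -0.004 without the filter. The passage 10 interaction of Slc26a4 was -2.685 to 0.508, with 0.102 and 0.226 by limma with a pseudocount of 1 and 0.1, and the passage 15 interaction of Clic6 was -0.148 by limma with 1. The cause was not tested. Of 720 values with 1 library left out, 685 kept direction and call, 10 lost a call and 14 gained one. Ckb for KO passage 15 against 5 ranged over -2.94 to -1.99. The replicate block changed no call but Slc26a4 for WT passage 15 against 5 (adjusted p = 0.0429) and its passage 15 interaction (0.0414), both gained; libraries share only a number. Counts under about 20 in some libraries limit Slc26a4, Clic6, Ckb and Atp4a.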

Other observations

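Markers of cell types that could carry these transporters were measured in the same libraries. Chief markers summed to 17.9 to 20.5 CPM in KO and 33.1 to 38.2 CPM in WT libraries at passage 5, from 2 markers of opposite direction. Pepsinogen C, Pgc, was lower in KO organoids, at 9.31 ± 1.09 CPM in KO and 30.2 ± 2.15 CPM in WT organoids (log2 -1.69 ± 0.11, adjusted p = 2.04e-10), and Bhlha15 was higher, at 10.2 ± 0.582 CPM in KO and 5.50 ± 0.625 CPM in WT organoids (log2 0.89 ± 0.14, adjusted p = 3.74e-05; SD, n = 3 each). At passage 10 Pgc was again lower (log2 -0.38, adjusted p = 0.00926) and Bhlha15 was not called (log2 -0.24, adjusted p = 0.206). At passage 15 Pgc (log2 0.63, adjusted p = 0.000294) and Bhlha15 (log2 2.08, adjusted p = 5.33e-10) were both higher in KO organoids. Pga5, Lipf and Chia1 had 0 counts in every library. The intestinal sum was carried by villin, Vil1, and spanned 183 to 471 CPM over all libraries, with Cdx1 and Fabp2 under 1 CPM in each group. Immune markers summed to 2.85 to 18.2 CPM. The squamous, enteroendocrine, tuft, fibroblast, endothelial and erythroid sums were at most 1.94, 1.62, 3.14, 1.91, 1.95 and 0.648 CPM in any library.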
